A study of Homo sapiens with 8 samples.

Results

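The genes described here code for chaperones of the endoplasmic reticulum (ER) and for ER quality control proteins whose transcripts are classical readouts of ER stress. They are HSPA5, HSP90B1, DNAJB9, HERPUD1, XBP1, SEL1L, EDEM1, PDIA4, SDF2L1 and CALR. Members were chosen by gene symbol, and 9 of the 10 matched a probe set by symbol or Entrez ID, out of 17687 genes named on the arrays. HSP90B1 matched none and has no value here. Each of the 9 had 1 probe set, so no choice between probe sets was needed.

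The values came from Affymetrix arrays of CCRF-CEM, a long-established human cell line from T-cell leukaemia (T-ALL), and thus from 1 line. In 1 group, cells received 1 µM OICR-9429 for 1 h before culture in a gel of bovine type I collagen at 1.7 mg/mL for 1 h (4 arrays). In the other group, cells went into the same gel for 1 h without the compound (4 arrays). The compound is an antagonist of WDR5, a scaffold protein of the MLL-family histone H3 lysine 4 methyltransferases. Both groups are grown in the gel, no group outside it enters here, and the labels mention no solvent given to the untreated cells. Replicates carry the numbers 1 to 4 in each group, and the labels call them biological without saying whether they came from separate days or passages, so p-values measure only the spread between these arrays. All values are log2 expression per probe set as deposited, and a difference of 1 is a factor of 2.

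The ER lumen folds secreted and membrane proteins, and unfolded chains there are sensed by IRE1, PERK and ATF6. IRE1 splices the XBP1 transcript, ATF6 is cut to release a transcription factor, and PERK slows translation while favouring that of ATF4. Spliced XBP1 and cleaved ATF6 raise the transcription of chaperones, of folding enzymes and of the machinery for ER-associated degradation, which returns misfolded proteins to the cytosol for the proteasome. In T-lineage cells this system serves the folding of surface receptors such as the T-cell receptor complex.

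The promoters of these genes are where ATF6 and XBP1 are known to act. RefSeq promoters (GRCh38.p14, 250 bases before to 50 after the start site) were found for all 10 genes, with 12 promoters in all because XBP1 and PDIA4 have 2 each. They were searched on both strands for the ER stress response element (ERSE, CCAAT and CCACG with 9 free bases between them), for its second form (ERSE-II, ATTGG and CCACG with 1 free base between them) and for the unfolded protein response element (UPRE, TGACGTGG). The 7 windows that hold a match are shown because they carry the elements by which this gene group is usually recognised. Each is printed 5′ to 3′ on the strand of the gene, and capitals mark the fixed letters of the element, which read CGTGG and ATTGG (ERSE) or CGTGG and CCAAT (ERSE-II) where it lies on the opposite strand.
HSPA5, chr9:125241366-125241434, minus strand, ERSE: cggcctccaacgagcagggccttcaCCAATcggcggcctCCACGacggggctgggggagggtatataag
HSP90B1, chr12:103930191-103930259, plus strand, ERSE: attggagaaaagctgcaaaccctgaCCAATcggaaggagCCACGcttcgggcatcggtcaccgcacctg
HSP90B1, chr12:103930296-103930364, plus strand, ERSE on the opposite strand: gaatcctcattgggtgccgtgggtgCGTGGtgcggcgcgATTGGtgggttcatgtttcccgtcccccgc
XBP1, chr22:28800578-28800646, minus strand, ERSE: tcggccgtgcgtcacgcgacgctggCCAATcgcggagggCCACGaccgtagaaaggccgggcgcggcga
CALR, chr19:12938359-12938427, plus strand, ERSE on the opposite strand: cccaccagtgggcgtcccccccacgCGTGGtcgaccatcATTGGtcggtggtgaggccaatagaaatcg
HERPUD1, chr16:56932000-56932060, plus strand, ERSE-II: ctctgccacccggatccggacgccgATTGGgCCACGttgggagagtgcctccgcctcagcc
SDF2L1, chr22:21642089-21642149, plus strand, ERSE-II on the opposite strand: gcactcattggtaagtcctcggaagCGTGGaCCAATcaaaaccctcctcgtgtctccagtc

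The full ERSE stood in 4 of the 10 genes and in 27 of 35116 promoters (0.0769%). The ERSE-II stood in 2 of the 10 genes, HERPUD1 and SDF2L1, and in 19 promoters (0.0541%). The UPRE stood in 0 of the 10 genes and in 256 promoters (0.729%). In HSPA5 the element lay 66 to 48 bases before the start site, and in XBP1 52 to 34 bases before it. In CALR it lay 225 to 207 bases before the start, and HSP90B1 carried a copy on each strand. No match overlapped another. DNAJB9, SEL1L, EDEM1 and PDIA4 held none of the 3 exact strings in these windows, which says only that these letters are not there.

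**Figure D1:**
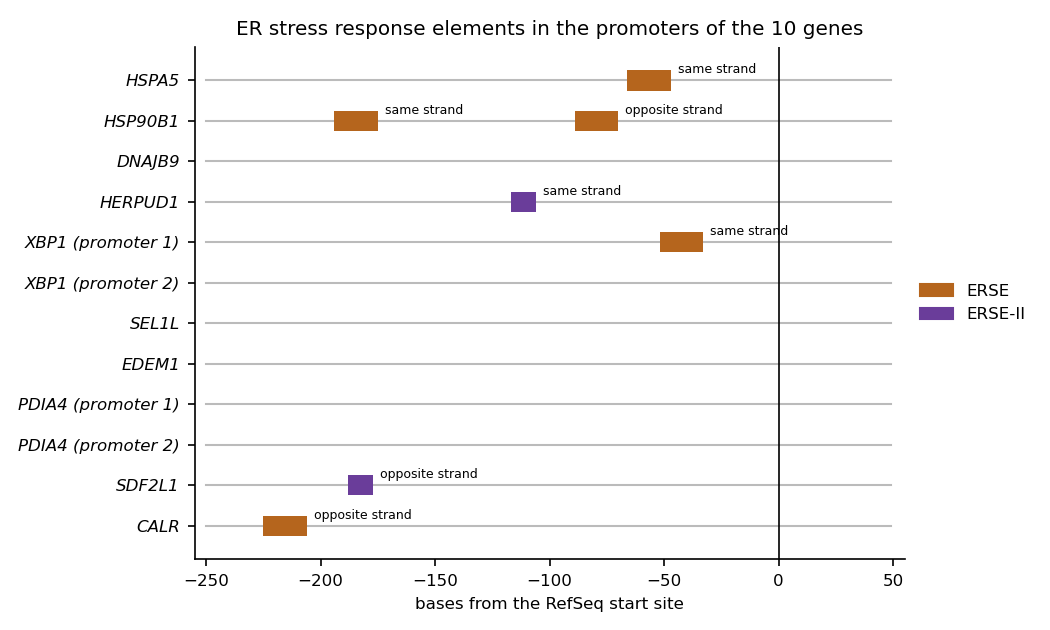
Positions of the ERSE and ERSE-II matches in the 12 RefSeq promoters of the 10 genes, in bases from the start site (0); grey lines span each promoter and bars the matched element, with its strand relative to the gene. The HSPA5 and XBP1 elements lie nearest the start site, and 4 genes (DNAJB9, SEL1L, EDEM1 and PDIA4) hold no match.

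The labelled T-cell line was checked on its markers. CD3E measured 11.61 to 11.97 and CD3D 10.98 to 11.74 over the 8 arrays. PTPRC lay at 11.14 to 11.97, LCK at 10.02 to 11.64, CD5 at 9.51 to 10.67 and CD7 at 8.42 to 9.60. Of markers of other cells, MZB1, a plasma-cell marker and itself an ER cochaperone, reached 8.93 to 9.68 and the B-cell gene CD79A 8.90 to 9.92. Both overlapped with the range of CD5 and CD7. The other measured B-cell gene, MS4A1, read 3.28 to 4.15, and the plasma-cell genes JCHAIN and TNFRSF17 stayed at or below 3.76. The plasma-cell gene SDC1 read 4.85 to 6.15. Among myeloid genes CD68 read 6.48 to 8.50, and the rest stayed at or below 6.45 (CD14). Among fibroblast genes COL1A2 read 7.77 to 8.56, COL1A1 6.22 to 7.18 and DCN 4.60 to 5.21. Array medians ran from 6.38 to 6.46, and the precision is limited by the number of arrays. Upper quartiles were 8.08 and 8.12 on the untreated and OICR-9429 arrays of number 4, against 8.29 to 8.40 on the other 6. Both arrays of number 4 stood apart from the other 6 on the first principal component (64.8% of variance), so calls and counts at the other numbers that change when number 4 is left out are given both ways.

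OICR-9429 changed none of the 9 genes past the threshold (adjusted p of 0.05, limma with Benjamini-Hochberg adjustment over 21448 probe sets). The background was 0 called probe sets as well (0%). At an unadjusted p under 0.05, limma gave 0 of the 9 genes, against 105 of all probe sets (0.49%). With the replicate number as a block it again gave 0 of 9, against 5.55% of all probe sets. Differences lay between -0.08 and 0.10, with 6 above 0, 3 below 0 and a median of 0.03 (all probe sets, 0.005).

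HSPA5 codes for BiP, the ER Hsp70 chaperone that also holds the stress sensors inactive. It measured 10.76, 10.97, 10.85 and 10.51 on the OICR-9429 arrays of numbers 1 to 4, and 10.81, 10.88, 10.76 and 10.53 on the untreated arrays. The groups overlapped, and both arrays of number 4 were the lowest of their group. Means were 10.77 ± 0.20 with OICR-9429 and 10.74 ± 0.15 without (SD, n = 4 each), and they differed by 0.03 ± 0.16 (SE) on the log2 scale. Within the numbers the difference was -0.05, 0.09, 0.09 and -0.02, so it went both ways.

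DNAJB9 codes for ERdj4, a J-domain partner of BiP that helps BiP repress IRE1 and is a target of spliced XBP1. It measured 7.56, 8.90, 8.34 and 8.36 on the OICR-9429 arrays of numbers 1 to 4, against 7.72, 8.79, 8.25 and 8.18 on the untreated arrays. In both groups number 1 was lowest and number 2 highest. The log2 difference was 0.06 ± 0.31 (SE), and within the numbers -0.16, 0.11, 0.09 and 0.18.

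SDF2L1 codes for a lumenal BiP cofactor. Its arrays read 7.79, 6.78, 7.35 and 7.87 with OICR-9429 and 7.50, 7.01, 7.41 and 7.96 without it, for numbers 1 to 4. Here number 2 was the lowest array of each group and number 4 the highest. The within-number differences, 0.29, -0.23, -0.06 and -0.09, spanned a wider range than those of any other member. Their mean was -0.02, with an SE of 0.28 without the replicate block and 0.11 with it.

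PDIA4 codes for ERp72, a protein disulfide isomerase of the lumen. It measured 9.46, 8.95, 9.15 and 8.94 with OICR-9429 and 9.32, 8.90, 9.22 and 8.93 without it. CALR codes for calreticulin, a lectin chaperone that binds glycoproteins and calcium, and it measured 12.59, 12.47, 12.64 and 12.59 against 12.53, 12.38, 12.67 and 12.53. CALR varied least among the 9, over 0.29 in all, and number 2 was the lowest array in both groups. The log2 differences were 0.03 ± 0.18 (SE) for PDIA4 and 0.05 ± 0.14 (SE) for CALR.

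XBP1 codes for the transcription factor whose transcript IRE1 splices. A probe set of a whole gene gives 1 value for both splice forms, so splicing is not measured here. The gene measured 9.55, 9.89, 9.35 and 9.81 with OICR-9429, against 9.38, 9.90, 9.51 and 9.93 without it. Numbers 2 and 4 were above numbers 1 and 3 in both groups, and the log2 difference between the groups was -0.03 ± 0.20 (SE).

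HERPUD1, SEL1L and EDEM1 serve ER-associated degradation. HERPUD1, a membrane scaffold of the degradation complex, measured 8.81, 9.33, 9.69 and 9.64 with OICR-9429 and 8.92, 9.39, 9.68 and 9.45 without it. Number 1 was the lowest and number 3 the highest array of each group, and the groups differed by 0.01 ± 0.24 (SE). SEL1L, the adaptor of the ubiquitin ligase HRD1, measured 9.38, 10.07, 9.79 and 9.15 against 9.47, 9.71, 9.79 and 9.04. Its within-number difference of 0.36 at number 2 was the largest of the 36 among the members, the others being -0.09, 0 and 0.11. EDEM1, which hands mannose-trimmed glycoproteins over for degradation, measured 8.42, 9.55, 9.12 and 8.92 against 8.62, 9.49, 9.13 and 9.07. The log2 differences of SEL1L and EDEM1 were 0.10 ± 0.25 and -0.08 ± 0.27 (SE).

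**Figure D2:**
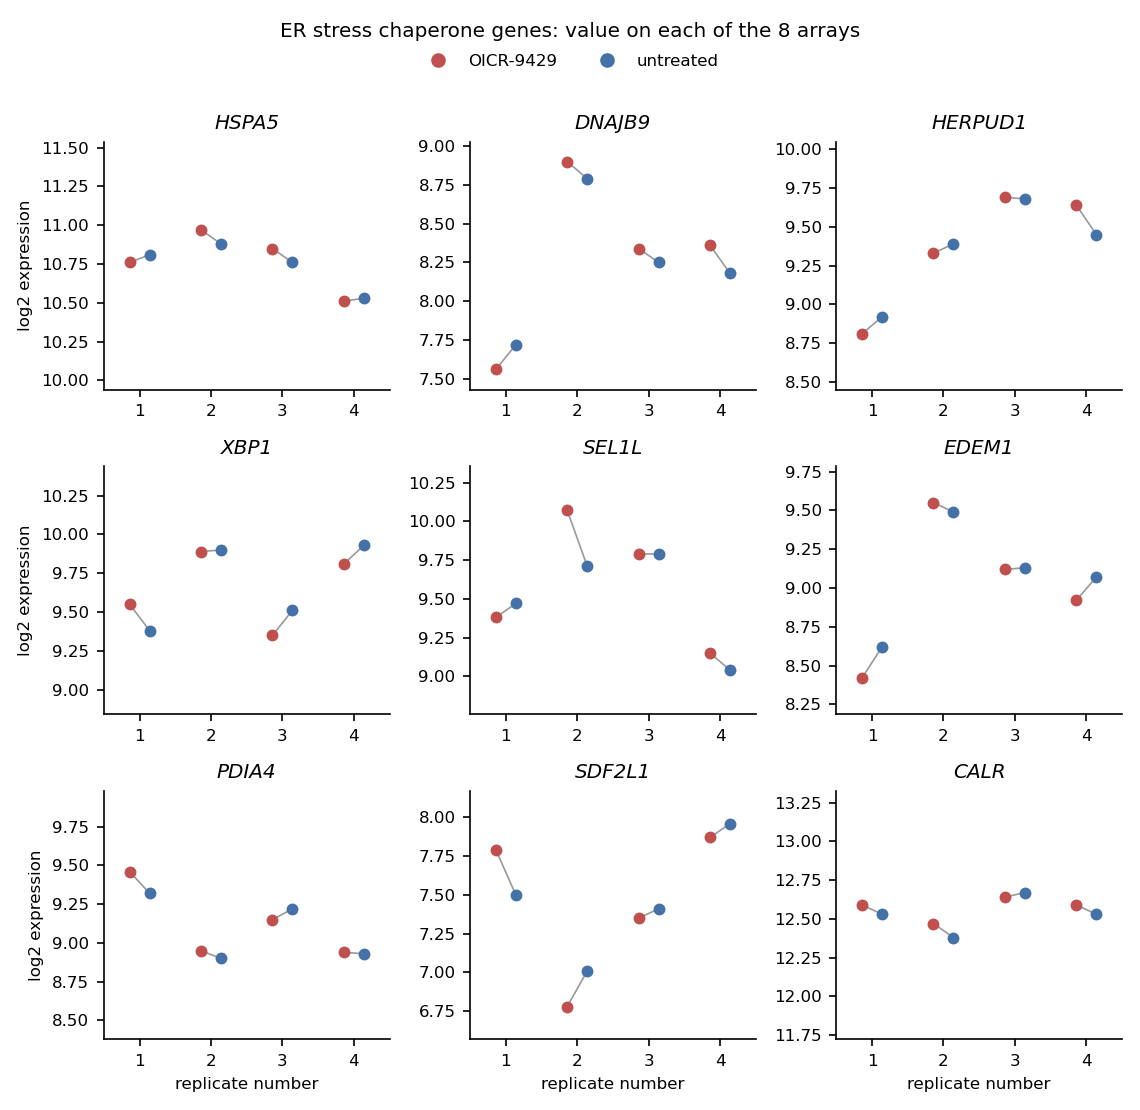
Log2 expression of the 9 measured genes on each array, by replicate number, with OICR-9429 (red, left) joined to untreated (blue, right) of the same number; every vertical axis spans the same range of log2 units. In DNAJB9 number 1 lies lowest (7.56 and 7.72) and number 2 highest (8.90 and 8.79), with numbers 3 and 4 overlapping between them; other genes, HSPA5 among them, also have numbers that overlap.

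In 0 of the 9 genes did the groups separate (0.737% of all probe sets), and in 0 of the 9 did all 4 numbers go the same way (12.6%). The median size of a within-number difference was 0.14, 0.09, 0.06 and 0.11 for the members at numbers 1 to 4, against 0.14, 0.195, 0.14 and 0.20 over all probe sets. With the replicate number as a block, the 95% interval of each of the 9 log2 differences lay within 1.5-fold in either direction, as did 90.7% of intervals over all probe sets. The widest of the 9 reached 0.26 to each side of its estimate. Where an SE is printed with a difference between the groups, it is that without the block unless the block is named. With the block, the SE of the 9 genes lay between 0.093 (CALR) and 0.114 (SDF2L1). The smallest adjusted p among the 9 was 1 without the block and 0.902 with it (limma).

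**Figure D3:**
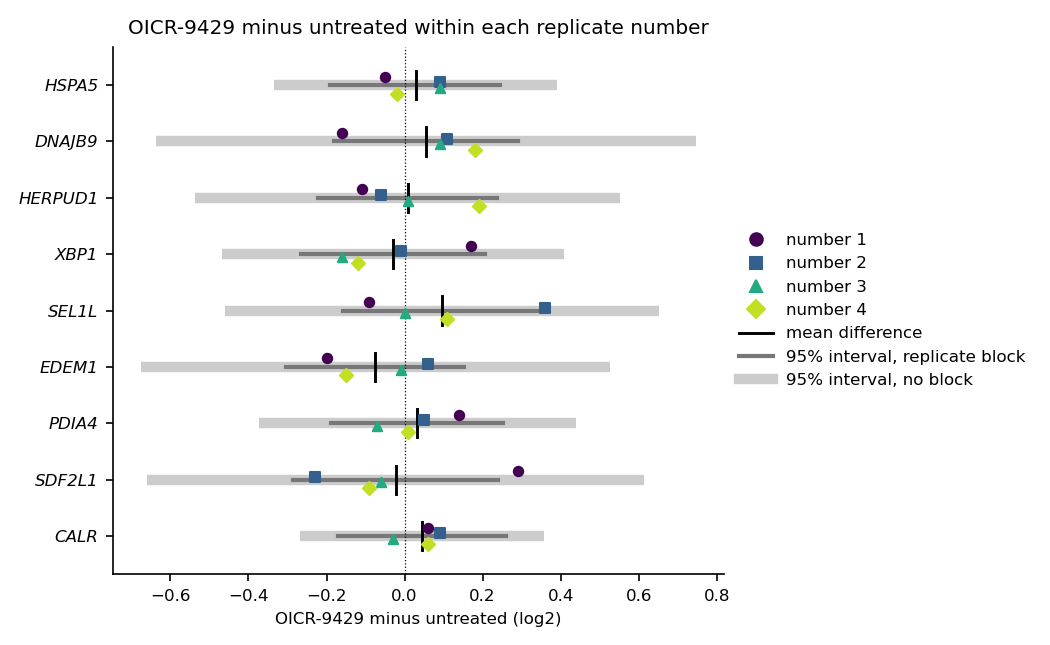
OICR-9429 minus untreated (log2) for each measured gene: symbols give the 4 numbers, black ticks the mean, dark bars the 95% interval with the replicate block and light bars that without it. All means lie between -0.08 and 0.10, and every interval includes 0.

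The replicate numbers differed in these genes far more than the treatments did. Number held 86.9% (CALR) to 97.4% (DNAJB9) of each gene's variance over the 8 arrays, and treatment 0.0141% (HERPUD1) to 6.55% (CALR). The medians over all probe sets were 81.3% and 2.51%, so this holds across the arrays and not for these genes alone. Number takes up more terms than treatment, so its share would tend to be the larger even without an effect. When limma tested all 4 numbers at once, 7 of the 9 genes passed, all but HSPA5 (adjusted p = 0.126) and CALR (adjusted p = 0.494). That count is near the background, since 50.3% of all probe sets passed, and 71.7% of those at or above the median level. With trend and robust variance all 9 passed, against 11720 of all 21448 probe sets. When only probe sets at or above the median level were tested, all but CALR passed (HSPA5 at an adjusted p of 0.0412). Of those 10725 probe sets 8850 passed. After a further quantile normalization HSPA5, CALR and PDIA4 failed, which left 6, against 10402 of all 21448 probe sets. Without number 4, DNAJB9, HERPUD1, EDEM1 and SDF2L1 passed, 4 of 9, against 13.9% of all probe sets. The test sets the numbers against how the difference between treated and untreated varies over them, with 2 arrays per number, so it does not measure the spread between separate cultures. Array values are relative within an array. As each array reads the RNA of many cells together, a lower level per cell and a smaller share of expressing cells cannot be told apart.

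DNAJB9 and EDEM1 moved together, low at number 1 and high at number 2. DNAJB9 averaged 7.64 at number 1 and 8.47 over the others, a log2 difference of -0.83 ± 0.12 (SE, limma adjusted p = 0.00491). EDEM1 averaged 8.52 and 9.21, a difference of -0.69 ± 0.11 (SE, limma adjusted p = 0.00828). At number 2 both were higher than the other numbers, DNAJB9 by 0.78 ± 0.12 (limma adjusted p = 0.00313) and EDEM1 by 0.64 ± 0.11 (limma adjusted p = 0.00557). The averages of number 2 and number 1 were 2.31-fold apart for DNAJB9 and 2.0-fold for EDEM1. In DNAJB9 the arrays of numbers 3 and 4 overlapped between the extremes, in EDEM1 number 3 lay just above number 4, and in neither gene did number 3 or 4 pass. Without number 4 these 4 calls held, with adjusted p of 0.00718 and 0.0107 at number 1 and 0.00675 and 0.0125 at number 2 (limma).

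HERPUD1 shared the low value at number 1 but not the high one at number 2. It averaged 8.87 at number 1 and 9.53 over the others, a log2 difference of -0.67 ± 0.12 (SE, limma adjusted p = 0.00974; 0.0165 without number 4). Number 2 stood at -0.005 and number 3 at 0.43 ± 0.12 (limma adjusted p = 0.105). Thus 3 of the 9 genes were lower at number 1 (6.14% of all probe sets) and 0 higher (10.6%). All 9 lie at or above the median level, where probe sets passed more often. When only those 10725 were tested, 4538 passed at number 1, 6058 at number 2 and 8059 at number 4, in either direction. With 1 of the arrays of number 1 left out, the 3 genes had differences between -0.97 and -0.59 and adjusted p between 0.061 and 0.117 (limma).

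SDF2L1 ran the other way, low at number 2 and high at number 4. It averaged 6.90 at number 2 and 7.65 over the others, a log2 difference of -0.75 ± 0.13 (SE, limma adjusted p = 0.00518), and 0.0274 without number 4. At number 4 it averaged 7.92, against 7.31 over the others, a difference of 0.61 ± 0.13 (limma adjusted p = 0.00548). SEL1L was lower at number 4 by a log2 difference of -0.61 ± 0.13 (SE, limma adjusted p = 0.00455) and higher at number 2 by 0.45 ± 0.13 (limma adjusted p = 0.0312). After a further quantile normalization the difference at number 4 shrank to -0.35 for SEL1L (limma adjusted p = 0.0434). For SDF2L1 it grew to 0.83 (limma adjusted p = 0.00129). The SEL1L difference at number 2 did not pass without number 4 (0.28, adjusted p = 0.218) or without the OICR-9429 array of number 2 (0.28, adjusted p = 0.347). It also failed without the OICR-9429 array of number 1 or of number 3 or the untreated array of number 3 (adjusted p of 0.0773, 0.0827 and 0.0627) and after quantile normalization (0.0502). Without the OICR-9429 array of number 2, DNAJB9, EDEM1 and SDF2L1 at number 2 had 0.74, 0.55 and -0.61, with adjusted p of 0.0556, 0.0886 and 0.0908 (limma). At number 2, then, 3 of 9 genes were higher (15.4% of all probe sets) and 1 lower (11.6%), and without number 4, 2 were higher (7.2%) and 1 lower (7.86%).

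HSPA5 was lower at number 4, at 10.52 against 10.84 over the others, a log2 difference of -0.32 ± 0.11 (SE, limma adjusted p = 0.0392). That call did not pass when any 1 array other than the untreated array of number 2 was left out, with adjusted p of 0.0563 to 0.189 (limma). It also failed after a further quantile normalization (-0.21, adjusted p = 0.143). Number 4 thus had 2 genes lower (25.5% of all probe sets), HSPA5 and SEL1L, and 1 higher (26.3%), SDF2L1. Markers of other cells moved at number 4 too: 2 of 5 myeloid, 3 of 4 plasma-cell and 2 of 3 fibroblast genes were higher and 0 lower. Of the 2 B-cell genes CD79A was higher and MS4A1 lower, and of the 6 T-cell genes 4 were higher and 1 lower. The mean over the myeloid genes was 5.75 and 5.93 on the OICR-9429 and untreated arrays of number 4, against 5.21 to 5.60 on the other arrays, and over the plasma-cell genes 5.71 and 5.78, against 5.00 to 5.33. Log2 array values have no true 0, and the part of these markers in the differences at number 4 was not tested.

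XBP1 and PDIA4 passed the test of any difference (limma adjusted p = 0.0392 and 0.0494) but not that of any single number, and without number 4 they did not pass (0.106 and 0.123). PDIA4 stood at 0.38 ± 0.11 at number 1, where its arrays lay above all others (limma adjusted p = 0.0535). At number 3, 0 genes passed in either direction (1.18% of all probe sets higher and 0.2% lower), and without number 4 again 0 did (0.681% and 0.2%). In all, 10 of the 36 differences between a number and the others passed, near the share over all probe sets (24.2% of 85792 such differences).

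**Figure D4:**
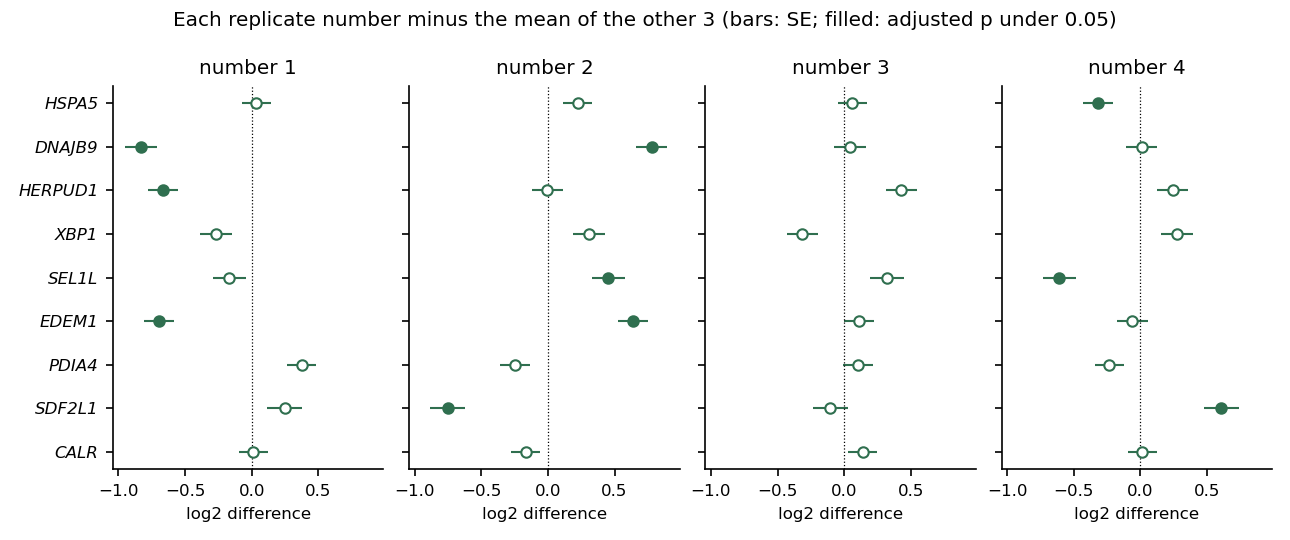
Each replicate number minus the mean of the other 3 for the 9 measured genes (log2, bars give the SE, filled symbols an adjusted p under 0.05). DNAJB9 and EDEM1 lie low at number 1 and high at number 2, SDF2L1 lies low at number 2 and high at number 4, and CALR stays within 0.17 of 0.

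The members did not form a single profile over the arrays. Among their 36 pairs, Pearson's r over the 8 arrays ran from -0.92 (SEL1L and SDF2L1) to 0.97 (DNAJB9 and EDEM1), with 9 pairs above 0.5 and 9 below -0.5. HSPA5 went with SEL1L (0.91) and against SDF2L1 (-0.89). DNAJB9 went against PDIA4 (-0.84). These values describe 8 arrays that share a normalization and fall into 4 pairs, and each r rests largely on 4 numbers. The genes outside the group whose values were most like those of HSPA5 were TVP23B, MARCHF7, SENP6, CEP97, PPP1R12A and LEMD3, at r of 0.993 to 0.997 over the 8 arrays. They too were lowest at number 4 and highest at number 2, over a wider range: their number averages spanned 1.03 to 2.19 on the log2 scale, against 0.41 for HSPA5. MARCHF7 codes for a ubiquitin ligase, SENP6 for a SUMO protease and PPP1R12A for the targeting subunit of myosin phosphatase.

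Members with the same promoter element did not share 1 profile, and whether the elements bear on the profiles was not tested. XBP1, HSPA5 and CALR carry the ERSE, and of them only HSPA5 passed at a single number. That HSPA5 call failed in most fits with 1 array left out. HERPUD1 and SDF2L1 share the ERSE-II, but HERPUD1 was lower at number 1 and SDF2L1 lower at number 2 and higher at number 4. Over all genes, 25 hold the ERSE in a promoter and 20 of these were measured, 17 of them outside the group. Those 17 had medians of -0.04, 0.07, 0.05 and 0.01 for numbers 1 to 4 against the others, and all named genes -0.03, -0.02, -0.01 and 0.09. CANX, CRELD2, ERO1B and PDIA6 are among the 17, and they went different ways at number 2: ERO1B, an ER oxidase, was higher by 1.05 ± 0.14 (SE, limma adjusted p = 0.00185), and CRELD2 lower by a log2 difference of -0.78 (adjusted p = 0.00363).

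The other genes of the pathway gave 0 calls for OICR-9429 in any of the 8 lists compared (limma, background 0%), and list medians lay between -0.05 and 0.09. Of their 83 measured genes, 0 had an unadjusted p under 0.05 in limma, and 1 had with the replicate block. Among the sensors, EIF2AK3, which codes for PERK, differed by 0.21 ± 0.41 (SE), ERN1, which codes for IRE1, by -0.12 ± 0.33, and ATF6 by 0.04 ± 0.19. ATF4 measured 10.40, 10.59, 10.42 and 10.52 with OICR-9429, against 10.39, 10.63, 10.46 and 10.58 without. MANF, a secreted ER stress protein, stood at 0.20 ± 0.17 (SE), and UGGT2, a folding sensor of glycoproteins, at 0.32 ± 0.17. UGGT2 read 2.63 to 3.35 over the arrays, where signal over background is not known.

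The lists are read against all probe sets, of which 6.14% were lower and 10.6% higher at number 1, 11.6% lower and 15.4% higher at number 2, and 25.5% lower and 26.3% higher at number 4. Without number 4 these shares were 4.32% and 5.85% at number 1 and 7.86% and 7.2% at number 2. Probe sets at or above the median level passed more often, so these shares are low as a background for lists of well-expressed genes. The lists were not counted again after quantile normalization. Between numbers, the sensors moved apart. ERN1 was lower at number 1, at 7.32 against 8.28 over the others (-0.97 ± 0.13, SE, limma adjusted p = 0.00399), the same number at which DNAJB9, EDEM1 and HERPUD1 were low. ERN1 was also higher at number 4, by 0.63 ± 0.13 (limma adjusted p = 0.00409), where none of these genes passed. At number 2 it stood at 0.33 (limma adjusted p = 0.0948), and without number 4 at 0.61 (0.0197). EIF2AK3 was lower at number 4, at 6.59 against 7.91 (-1.32 ± 0.12, limma adjusted p = 9.83e-05), and higher at number 2 by 0.74 ± 0.12 (adjusted p = 0.00409; 0.124 without number 4). CREB3, a related ER membrane transcription factor, ran opposite to it, higher at number 4 by 0.72 and lower at number 2 by a log2 difference of -0.56 (limma adjusted p = 0.00895; 0.0901 without number 4). ATF6 was lower at number 4, at -0.46 ± 0.11 (limma adjusted p = 0.00791). Of the 8 sensors and activators 6 passed the test of any difference (50.3% of all probe sets), and without number 4 only ERN1 did, 1 of 8 (13.9%).

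The PERK and ATF4 arm had 6 of 10 genes lower and 0 higher at number 1 (median -0.55, against -0.03 for all named genes) and 8 higher and 1 lower at number 4 (median 0.78, against 0.09). Without number 4, 3 of the 10 were lower at number 1, ATF3, PPP1R15A and ASNS, and the median was -0.29. ATF3, a stress transcription factor, was lower at number 1 by a log2 difference of -1.39 ± 0.13 (SE, limma adjusted p = 0.00111). PPP1R15A, which codes for the phosphatase subunit GADD34, was lower there by -1.35 ± 0.13 (adjusted p = 0.00133). DDIT3, which codes for the stress factor CHOP, was higher at number 4, at 7.51 against 6.67 over the others (0.84 ± 0.12, adjusted p = 0.000876). ASNS, asparagine synthetase, measured 9.90 with OICR-9429 and 9.91 untreated at number 2, where it was higher than the others by 2.57 ± 0.12 (limma adjusted p = 0.000388). All other ASNS arrays lay between 6.82 and 7.71. ASNS was the 1 gene of the 10 that was higher at number 2, where 1 was lower, DDIT3, and the list median was -0.06. Without number 4, 2 were higher and 0 lower there (median 0.21). Number 2 thus had high DNAJB9, EDEM1 and ASNS and low SDF2L1 and CRELD2, while ATF4 itself did not pass (0.15 ± 0.11, limma adjusted p = 0.357).

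BiP cofactors had 6 of 10 genes lower and 1 higher at number 4 (median -0.50), and 5 higher and 1 lower at number 2 (median 0.23). Without number 4, 2 were higher and 1 lower at number 2, and the median there changed sign (-0.13). DNAJC10, the disulfide reductase ERdj5, was lower at number 4 by a log2 difference of -2.15 ± 0.15 (SE, limma adjusted p = 4.18e-05), and DNAJB11, which codes for ERdj3, by -1.50 ± 0.11 (adjusted p = 4.61e-05). Beside these, the HSPA5 difference of -0.32 at the same number was small. The folding enzymes had 6 of 12 lower (25.5% of all probe sets) and 3 higher (26.3%) at number 4, with TXNDC5 at -1.17 and P4HB, the main protein disulfide isomerase, at 0.75. In the calnexin cycle UGGT1 stood at -1.48 and CANX at -0.81 there, and PRKCSH, a glucosidase subunit, at 0.55.

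The further genes of ER-associated degradation had 8 of 16 lower and 3 higher at number 4 (median -0.29), and 4 higher and 2 lower at number 2 (median 0.04). Without number 4, 0 were higher and 1 lower at number 2 (median -0.03). EDEM3 and EDEM2, relatives of EDEM1, stood at 0.83 ± 0.18 (SE, limma adjusted p = 0.0113) and -0.55 (adjusted p = 0.013) at number 2, but without number 4 neither passed (0.49 and -0.41, adjusted p of 0.0621 and 0.0718), whereas EDEM1 did. At number 1, where EDEM1 and HERPUD1 were low, 0 of the 16 were lower and 2 were higher, SYVN1 and AUP1. SYVN1 codes for HRD1, the ligase that SEL1L serves, and stood at 0.64 (adjusted p = 0.0385; 0.0549 without number 4, where AUP1 passed). Translocation genes had 6 of 11 lower and 1 higher at number 4 (median -0.33). SEC61B, a subunit of the translocation channel, was lower at number 2 by a log2 difference of -0.83 ± 0.11 (limma adjusted p = 0.00208), as SDF2L1 was. SYVN1, AUP1, EDEM2, CRELD2, PDIA6 and, further below, HSPE1 are named after their values were seen.

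**Figure D5:**
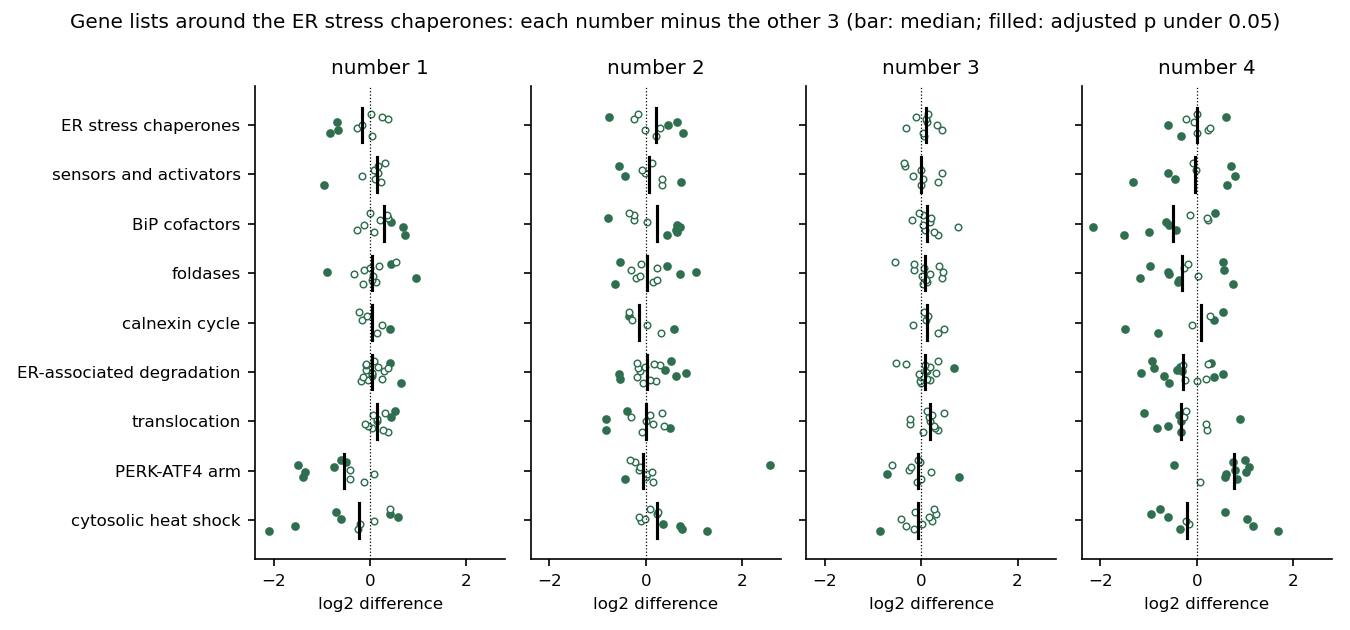
Each replicate number minus the other 3 (log2) for every measured gene of the ER stress chaperones and of the 8 lists around them; filled points have an adjusted p under 0.05 and bars mark list medians. The PERK and ATF4 arm lies low at number 1 (median -0.55, and -0.29 without number 4) and high at number 4 (0.78), and the ER stress chaperones spread to both sides at numbers 1, 2 and 4.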

How the data were processed

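Total RNA of 8 samples was labelled with a GeneChip WT PLUS reagent kit, per the labels' protocols. The deposited values are log2 expression per probe set, made with RMA and Transcriptome Analysis Console per the submitters' processing notes. Their versions and the genome build are not stated in these sources. Scanner files were not used. No pair of arrays held identical values. Probe sets took gene symbols from the platform annotation, updated by Entrez ID through RefSeq (GRCh38.p14): 17709 had 1 symbol, 0 several and 3739 none. A gene with several was taken at its highest mean.

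Groups were compared with limma 3.58.1 in R 4.3.3 (lmFit, eBayes), on all 8 arrays without covariate, two-sided, with Benjamini-Hochberg adjustment over 21448 probe sets. Numbers were compared with treatment as covariate, by an F test and as each number against the other 3. The scripts were tested on simulated data.

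The members, lists, tests and alternatives were chosen with earlier results of these data known. Named genes were the members, in each list the 3 with the smallest p for numbers and the 1 for treatment, 5 fixed regulators, and the 6 most like HSPA5. Deviations from group means correlated between same-numbered arrays at 0.696, 0.748, 0.566 and 0.865, all above the limit set of 0.1. The numbers, which come from the sample titles, were therefore taken to pair the samples. The labels state no pairing, and the same correlation was not computed between arrays of different numbers. Promoter sequences are RefSeq's.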

Additional observations from a re-analysis of the deposited data

How the results depend on the processing

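For OICR-9429, 0 probe sets passed under all alternatives run: the replicate block (smallest adjusted p 0.841), trend and robust variance, probe sets at or above the median level, quantile normalization, and leaving out each array or, chosen after seeing the data, each pair with the block. The replicate block changed no call. The 9 genes stayed uncalled throughout, but their signs are not fixed: quantile normalization gave -0.028 for HERPUD1 and -0.006 for PDIA4, and the block without 1 pair gave -0.003 for PDIA4, 0.047 for SDF2L1, 0.013 for XBP1 and -0.053 for HERPUD1 (without pairs 1 to 4 in turn). Leaving out 1 array gave -0.044 to 0.115 for HSPA5, -0.148 to 0.298 for DNAJB9, -0.139 to 0.193 for HERPUD1, -0.13 to 0.07 for XBP1, -0.062 to 0.244 for SEL1L, -0.257 to 0.119 for EDEM1, -0.079 to 0.108 for PDIA4, -0.176 to 0.20 for SDF2L1 and -0.004 to 0.093 for CALR. Between numbers, the 10 called differences kept their direction under each alternative; they passed again in 124 repeats and did not in 26. Leaving out 1 array or 1 number gave 4 to 5 genes with any difference (7 with all arrays), and 2979 to 10394 probe sets (10791). It gave 134 to 5489 probe sets at number 1 (3580), 1253 to 6332 at number 2 (5803), 16 to 2783 at number 3 (297) and 8597 to 11049 at number 4 (11108). Fewer arrays are fitted there, and a lone array is assumed to vary like the others. Number 3 had 516 without covariate, 2136 with trend and robust variance and 1724 at or above the median level; the cause was not tested. Averaging probe sets could change no member, as each has 1. Signal over background is not known.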

Other observations

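The heat shock genes of the cytosol, which answer misfolded proteins outside the ER, also differed between the numbers. Their list holds the mitochondrial HSPD1 and HSPE1 as well. HSPA1A, the inducible Hsp70, read 7.95, 10.57, 8.90 and 10.85 with OICR-9429 and 8.0, 10.46, 8.93 and 10.78 untreated, for numbers 1 to 4. It was lower at number 1 by a log2 difference of -2.11 ± 0.11 (SE, limma adjusted p = 0.00011) and higher at number 4 by 1.68 ± 0.11 (adjusted p = 3.87e-05). DNAJB1, its J-domain partner, was lower at number 1 by -1.56 ± 0.12 and higher at number 4 by 1.17 ± 0.12. HSPD1, the mitochondrial Hsp60 chaperonin, went the other way, at 0.41 at number 1 (adjusted p = 0.0384, and 0.641 without number 4) and -0.95 at number 4. Of the 10 measured genes, 4 were lower (6.14% of all probe sets) and 2 higher (10.6%) at number 1, and 4 lower (25.5%) and 4 higher (26.3%) at number 4. The 2 higher at number 1 were HSPD1 and HSPE1, which were also among the 4 lower at number 4. At number 2, 4 were higher (15.4%) and 0 lower (11.6%). HSPA1A was higher there by 1.28 ± 0.11 and DNAJB1 by 0.70 ± 0.12 (SE, limma adjusted p of 0.00111 and 0.00491). Without number 4, 3 were lower (4.32%) and 0 higher (5.85%) at number 1, and 4 were higher (7.2%) and 0 lower (7.86%) at number 2. HSPA4 had the smallest unadjusted p of the list for OICR-9429, at a log2 difference of 0.22 ± 0.26 (SE), and 0 of the 10 passed. HSPA1A shares nearly identical sequence with HSPA1B, so its probe set may read both.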
